A study of Mus musculus with 12 samples.

Results

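The 10 genes described here, Fos, Fosb, Jun, Junb, Egr1, Atf3, Ier2, Ier3, Zfp36 and Dusp1, are immediate early genes. They are 10 of the 18193 genes measured in mouse liver with GeneChip Mouse 430 2.0 arrays from Affymetrix. They were picked by name, but with earlier results of these data known, so the counts below describe them and are no independent test. On such an array a set of short probes, called a probe set, reads 1 transcript. They have 11 probe sets in all, 2 for Jun and 1 for each other gene. For Jun, the probe set with the higher mean over the 12 arrays is given first and the other one beside it. The study set livers of Atp7b-/- mice given supplemental zinc (4 arrays) and of untreated Atp7b-/- mice (4 arrays) beside livers of wild type mice (4 arrays). All mice were labelled C57Bl/6 and were 3 months old. Total RNA came from 100 mg of whole liver, so a difference in level may reflect RNA per cell or the mix of cells, which cannot be told apart. The zinc dose, how long it was given, the nature of the Atp7b allele, and the time between death and extraction are not stated in the labels used here. Nor do the labels say that every array stands for its own animal, so the p-values measure the spread between these arrays, which may be partly technical. The level of Atp7b itself averaged 6.83 ± 0.18 in zinc-treated Atp7b-/-, 7.11 ± 0.15 in untreated Atp7b-/- and 8.6 ± 0.07 in wild type livers (log2, SD, n = 4 each), and every Atp7b-/- array was below every wild type array. Where its probes lie relative to the mutation is not stated in the labels.

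Immediate early genes are transcribed within minutes of a signal, by transcription factors that already sit in the cell, so that no new protein has to be made first. Serum response factor with its ternary complex partners, CREB and the MAP kinases ERK, JNK and p38 drive many of them, and their messenger RNAs are short-lived. In liver they are known for a rapid and passing rise after partial hepatectomy, after injury and after handling of the tissue. Atp7b is the copper-transporting ATPase that moves copper out of hepatocytes into bile, and its loss causes copper to build up in the liver, as in Wilson disease.

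Sequences around the transcription start were examined for the elements these factors are known to bind. Of the 10 genes, 8 had a window of 250 bases before to 50 bases after the start in RefSeq (GRCm38.p6), and Egr1 and Ier2 had none. Both strands of all 32851 such windows were searched for 7 motifs. The 5 windows below belong to members that rose in Atp7b-/- livers and hold an element of the CREB and ATF family or a serum response element core. The capitals mark that element. In Fos (chr12:85473640-85473939, plus strand) they are 2 copies of TGACG, the short core of the CREB element, at 129 to 125 and at 66 to 62 bases before the start. In Jun (chr4:95052173-95052472, minus strand) they are TGACATCA, the Jun and ATF element, at 45 to 38 bases before the start. In Atf3 (chr1:191183284-191183583, minus strand) they are TGACG on the opposite strand at 7 to 3 bases before the start. In Zfp36 (chr7:28379179-28379478, minus strand) they are a CArG box, the core of the serum response element, at 58 to 49 bases before the start. Those letters also hold an A-rich stretch that resembles a TATA box. In Dusp1 (chr17:26508423-26508722, minus strand) they are the full CREB element TGACGTCA at 143 to 136 bases before the start, which contains the short core on both strands. A further TGACG of Dusp1, at 191 to 187 bases before the start, is left in small letters. Junb also rose and holds TGACG at 106 to 102 bases before the start, but its window is not printed.
Fos: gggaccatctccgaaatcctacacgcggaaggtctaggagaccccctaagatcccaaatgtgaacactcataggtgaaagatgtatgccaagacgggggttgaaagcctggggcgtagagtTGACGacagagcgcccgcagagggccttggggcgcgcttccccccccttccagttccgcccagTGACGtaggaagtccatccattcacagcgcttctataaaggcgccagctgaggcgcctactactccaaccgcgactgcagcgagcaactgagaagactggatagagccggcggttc
Jun: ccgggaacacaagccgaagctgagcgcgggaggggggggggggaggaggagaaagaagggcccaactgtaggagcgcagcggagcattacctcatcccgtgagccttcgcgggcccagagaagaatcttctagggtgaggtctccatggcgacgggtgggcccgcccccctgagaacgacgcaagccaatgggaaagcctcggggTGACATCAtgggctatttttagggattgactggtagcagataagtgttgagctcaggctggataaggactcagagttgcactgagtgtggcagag
Atf3: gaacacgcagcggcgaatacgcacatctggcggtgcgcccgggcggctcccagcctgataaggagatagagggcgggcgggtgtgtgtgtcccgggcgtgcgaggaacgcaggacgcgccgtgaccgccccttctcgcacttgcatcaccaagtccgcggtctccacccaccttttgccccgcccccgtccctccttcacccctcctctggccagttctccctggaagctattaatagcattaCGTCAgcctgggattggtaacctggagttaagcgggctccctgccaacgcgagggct
Zfp36: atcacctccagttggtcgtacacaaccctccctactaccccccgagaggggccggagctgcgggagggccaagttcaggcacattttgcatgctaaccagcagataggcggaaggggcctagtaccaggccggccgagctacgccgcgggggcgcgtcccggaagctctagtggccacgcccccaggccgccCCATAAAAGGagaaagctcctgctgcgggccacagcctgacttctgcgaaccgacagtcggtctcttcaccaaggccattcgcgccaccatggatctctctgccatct
Dusp1: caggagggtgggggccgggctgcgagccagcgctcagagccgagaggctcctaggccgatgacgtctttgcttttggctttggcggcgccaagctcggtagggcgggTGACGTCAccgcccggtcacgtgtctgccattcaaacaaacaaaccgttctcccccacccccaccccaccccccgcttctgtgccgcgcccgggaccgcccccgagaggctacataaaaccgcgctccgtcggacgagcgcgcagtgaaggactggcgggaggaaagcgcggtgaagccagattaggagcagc

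Counted over all windows, the short core TGACG was in 5 of the 8 member windows (Fos, Fosb, Junb, Atf3 and Dusp1), against 20.8% of all windows. TGACGTCA was in 1 member window and 1.79% of all windows, TGACATCA in 1 and 3.62%, and the CArG box in 1 and 1.63%. The Egr1 motif GCGNGGGCG was in 2, those of Fosb and Zfp36, and in 5.55% of all windows. The core of the metal response element, TGCACNC or TGCGCNC, was in 5 (Jun, Junb, Atf3, Ier3 and Dusp1), against 25.7% of all windows. The AP-1 site TGANTCA was in 0 of the 8 windows and in 7.81% of all windows. A match describes the letters of this window and no more.

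In untreated Atp7b-/- livers, 8 of the 10 genes rose against wild type, against 24.6% of all genes called in either direction (14.3% higher and 10.3% lower). The changes ran from 15.1-fold for Egr1 to 1.68-fold for Ier2. The 8 include the AP-1 subunits Fos, Jun, Junb and Atf3, the zinc finger factor Egr1 and the regulator Ier2. The feedback genes Zfp36 and Dusp1 make up the rest. Fosb and Ier3 were not called. The median change of the 10 genes was 1.62 on the log2 scale, beside -0.05 for all genes tested. A call is a Benjamini-Hochberg adjusted p under 0.05 over all 18193 genes in limma, and every change below is on the log2 scale unless it is given as a fold. For Junb, Atf3, Egr1 and Zfp36 all 4 Atp7b-/- arrays lay above all 4 wild type arrays, a pattern found higher in 14.3% of all genes.

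With zinc, 3 of the 10 genes fell against untreated Atp7b-/- livers, namely Jun, Atf3 and Zfp36, against 6.54% of all genes called in either direction and 4.84% called lower. Jun fell 4.88-fold, Zfp36 2.74-fold and Atf3 1.91-fold. The other 7 did not pass the test. At an unadjusted p under 0.05 there were 7, against 21.9% of all genes. Fos had a change of -2.16 with an adjusted p = 0.05004 in limma, just past the threshold. The median change of the 10 genes was -1.19, beside 0.01 for all genes. The count rests on few arrays. It was 7 without untreated replicate 3, 2 without untreated replicate 4, and 0 without zinc replicates 2 and 3. Over all genes the counts in these fits were 1053, 689 and 614, beside 1190 with all arrays.

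Between zinc-treated Atp7b-/- and wild type livers, limma called 0 of the 10 genes, against 7.62% of all genes (4.89% higher and 2.73% lower). At an unadjusted p under 0.05 there were 2, Egr1 and Ier2, against 21.7% of all genes. The median change was 0.2 for the 10 genes and -0.02 for all genes. The intervals remain wide, so these values do not show that the levels were alike. The 3 comparisons share arrays, so their values are given side by side and are not independent of each other.

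**Figure D1:**
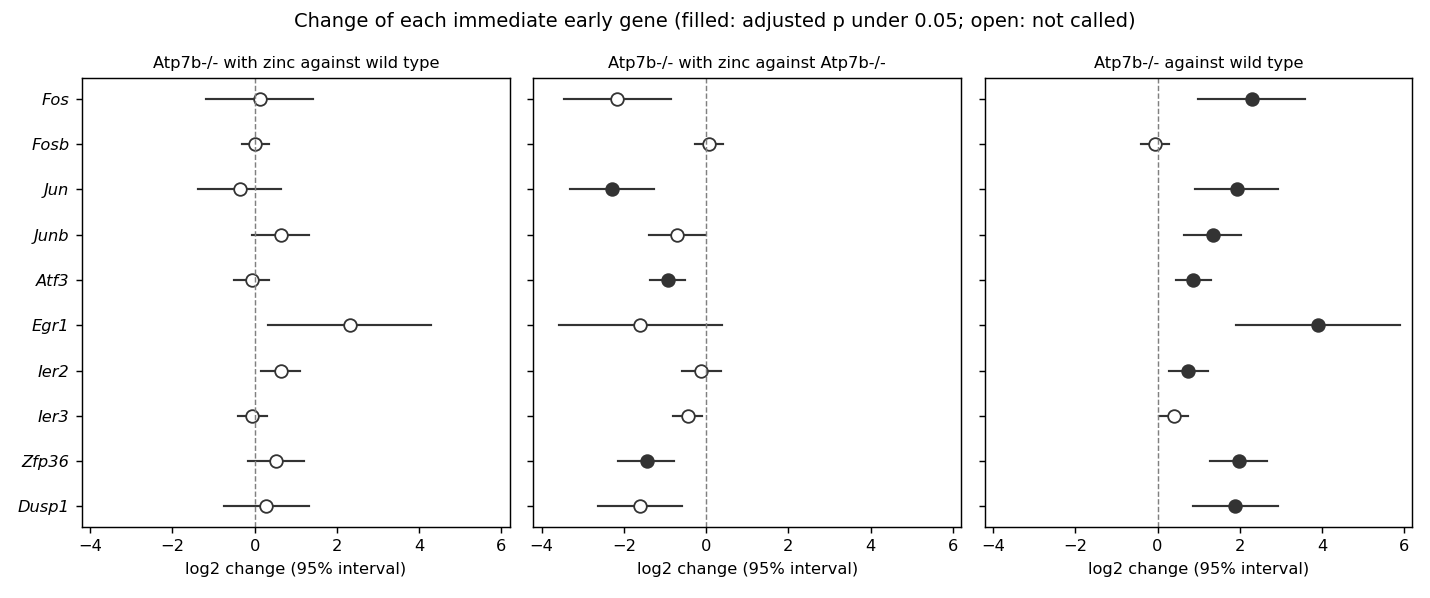
Log2 change (x axis) of each of the 10 genes in the 3 comparisons, a panel each, with bars for the 95% confidence interval from limma and filled points for adjusted p under 0.05. The 8 called genes of Atp7b-/- against wild type lie to the right of 0, Jun, Atf3 and Zfp36 lie to the left with zinc, and no gene is filled for zinc-treated against wild type.

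Fos (gene 14281, chromosome 12, 85473890 to 85477274 in GRCm38) encodes the AP-1 subunit that pairs with Jun proteins. Its log2 level was 5.34, 6.5, 6.17 and 7.05 in zinc-treated replicates 1 to 4, 9.12, 9.81, 6.15 and 8.64 in untreated Atp7b-/- replicates, and 6.67, 5.82, 6.25 and 5.83 in wild type replicates. Untreated replicate 3 lay inside the wild type range, while the other 3 untreated arrays lay above every zinc-treated and wild type array. The change was 2.29 ± 0.6 (SE; adjusted p = 0.0146 in limma) in untreated Atp7b-/- against wild type, and 0.13 (interval -1.18 to 1.43) in zinc-treated against wild type.

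Jun (gene 16476, chromosome 4, 95049036 to 95052222) encodes the central AP-1 partner, which the kinase JNK activates. It stood at 7.09, 8.07, 8.38 and 8.54 in zinc-treated replicates, at 10.2, 11.01, 8.84 and 11.19 in untreated Atp7b-/- replicates, and at 8.06, 7.68, 8.86 and 8.92 in wild type replicates. In the probe set given first, every zinc-treated array was below every untreated one, which no other member shows. Among all genes, 9.39% were lower without overlap and 5.93% higher. Jun rose by 1.93 ± 0.47 (SE; adjusted p = 0.00941 in limma) in untreated Atp7b-/- against wild type and changed by -2.29 (interval -3.3 to -1.27; adjusted p = 0.011) with zinc. In zinc-treated against wild type livers the change was -0.36, with an interval of -1.37 to 0.65. The other Jun probe set gave 6.93, 7.45, 7.96 and 7.59 with zinc, a mean of 9.26 ± 1.02 (SD, n = 4) in untreated Atp7b-/- livers with replicate 3 lowest at 7.82, and 7.53, 6.97, 7.89 and 8.29 in wild type. It too was called in both comparisons, at 1.59 (adjusted p = 0.0164 in limma) and -1.77 (adjusted p = 0.0264). Its zinc-treated and untreated arrays overlap, as zinc-treated replicate 3, at 7.96, lay above untreated replicate 3.

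Junb (gene 16477, chromosome 8, 84976909 to 84978748) encodes an AP-1 subunit that tempers Jun in many cells. Its levels were 6.25, 7.73, 7.09 and 7.32 with zinc, 8.01, 7.56, 7.09 and 8.58 in untreated Atp7b-/- livers, and 6.74, 6.28, 6.67 and 6.2 in wild type. All 4 untreated arrays and 3 of the 4 zinc-treated arrays lay above the highest wild type array. The rise was 1.34 ± 0.32 (SE; adjusted p = 0.00805 in limma) in untreated Atp7b-/- against wild type. Neither contrast with zinc passed the test, with changes of -0.71 against untreated and 0.63 against wild type livers.

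Atf3 (gene 11910, chromosome 1, 191170296 to 191183333) encodes a stress-induced factor of the ATF family that pairs with Jun proteins. Its levels of 5.45, 5.61, 5.42 and 5.94 with zinc stood beside 6.54, 6.81, 5.92 and 6.9 in untreated Atp7b-/- livers and 5.47, 5.44, 5.89 and 5.91 in wild type. Untreated replicate 3 was 0.01 above the highest wild type array, so the separation of those groups rests on a small margin. Atf3 rose by 0.86 ± 0.2 (SE; adjusted p = 0.00637 in limma) in untreated Atp7b-/- against wild type and changed by -0.93 (adjusted p = 0.0126) with zinc.

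Fosb (gene 14282, chromosome 7, 19302696 to 19310118), another Fos family subunit, was the one member whose 3 group means lay within 0.08 of each other. It averaged 3.52 ± 0.27 with zinc, 3.44 ± 0.25 in untreated Atp7b-/- livers and 3.51 ± 0.23 in wild type (SD, n = 4 each). No Fosb comparison passed the test, and the interval of untreated Atp7b-/- against wild type ran from -0.4 to 0.27. The deposited table holds no detection call, so the values do not say whether Fosb was above background. The same limit holds for the other members. In wild type livers the means of 6 of the 10 lay below 6.58, the median of all gene values (Fos, Fosb, Junb, Atf3, Egr1 and Ier3).

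Egr1 (gene 13653, chromosome 18, 34861207 to 34864956), a zinc finger factor induced through serum response factor, had the largest change of the 10 in untreated Atp7b-/- against wild type livers and the largest SD of the 10 in both Atp7b-/- groups. It read 7.28, 10.89, 8.13 and 8.99 in zinc-treated replicates, 11.12, 11.55, 7.07 and 11.97 in untreated Atp7b-/- replicates, and 6.56, 6.23, 6.69 and 6.59 in wild type replicates. Every Atp7b-/- array, treated or not, was above every wild type array. The untreated SD was 2.26, against 0.2 in wild type. Egr1 rose by 3.91 ± 0.92 (SE; adjusted p = 0.0077 in limma) in untreated Atp7b-/- against wild type. In zinc-treated against wild type livers it differed by 2.31 (interval 0.32 to 4.3), with an adjusted p = 0.161, and the arrays of 7.88% of all genes were higher without overlap there. With 1 array left out its adjusted p in limma ran from 0.0255 without untreated replicate 3, which is in neither group and enters through the shared spread alone, to 0.368 (difference 1.62) without zinc replicate 2.

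**Figure D2:**
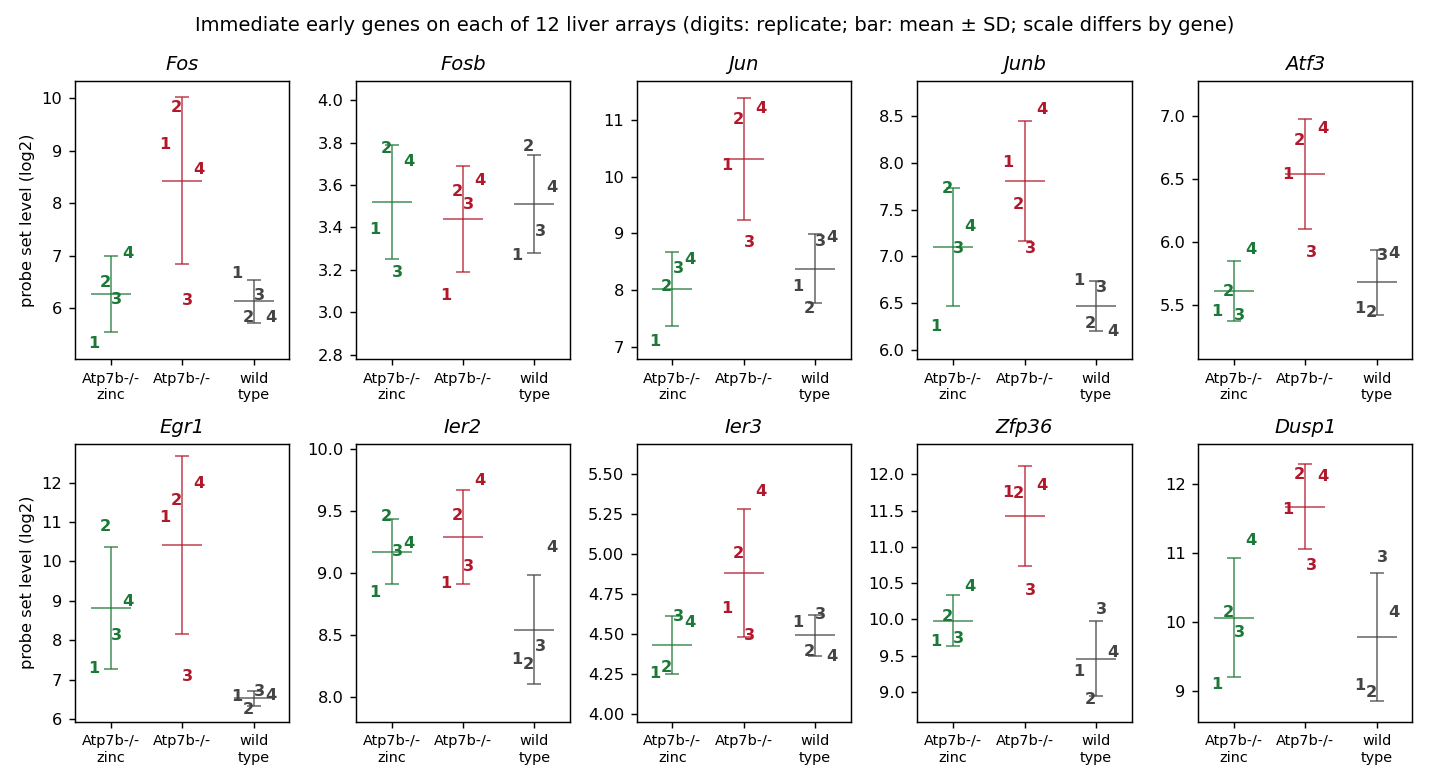
Log2 level of each of the 10 genes on every array, with zinc-treated Atp7b-/-, untreated Atp7b-/- and wild type from left to right, the digit of the replicate at each value and bars for the group mean ± SD; the y axis is log2 and its range differs by gene. Untreated replicate 3 sits near the wild type arrays for Fos, Jun, Egr1 and Dusp1, and Fosb shows no separation of groups.

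Ier2 (gene 15936, chromosome 8, 84661331 to 84662852) and Ier3 (gene 15937, chromosome 17, 35821713 to 35822911) encode small regulators named for their early response, and Ier3 is known for its part in cell survival. Ier2 read 8.84, 9.45, 9.17 and 9.24 with zinc, 8.91, 9.46, 9.05 and 9.74 in untreated Atp7b-/- livers, and 8.3, 8.26, 8.41 and 9.2 in wild type. The 2 mutant groups lay close together, and wild type replicate 4 was level with them. Ier2 rose by 0.75 ± 0.22 (SE; adjusted p = 0.0253 in limma) in untreated Atp7b-/- against wild type. That call was lost, at adjusted p-values from 0.0645 to 0.0813, when any 1 of wild type replicates 1, 2 and 3 or untreated replicates 2 and 4 was left out. With zinc its change was -0.12, with an interval of -0.59 to 0.36. Ier3 averaged 4.43 ± 0.18 with zinc, 4.88 ± 0.4 in untreated Atp7b-/- livers and 4.49 ± 0.13 in wild type (SD, n = 4 each). Its 4 untreated values were 4.66, 5.0, 4.49 and 5.39, of which 3 lay above all wild type arrays. The change of 0.4 did not pass the test (adjusted p = 0.0927 in limma), and it was 0.53 (adjusted p = 0.0291) without untreated replicate 3.

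Zfp36 (gene 22695, chromosome 7, 28376784 to 28379228) encodes tristetraprolin, which binds AU-rich messenger RNAs, many from immediate early and cytokine genes, and speeds their decay. Its levels were 9.69, 10.04, 9.73 and 10.45 with zinc, 11.75, 11.74, 10.4 and 11.84 in untreated Atp7b-/- livers, and 9.28, 8.89, 10.13 and 9.55 in wild type. Replicates 1, 2 and 4 of the untreated group lay within 0.1 of each other and replicate 3 far below them, yet still above every wild type array. Zfp36 had the smallest adjusted p of the 10, with a rise of 1.97 ± 0.32 (SE; adjusted p = 0.000596 in limma). With zinc it changed by -1.45 (adjusted p = 0.0157), and by -1.32 (adjusted p = 0.0556) without untreated replicate 4.

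Dusp1 (gene 19252, chromosome 17, 26505591 to 26508472) encodes the phosphatase that switches off JNK, p38 and ERK. It stood at 9.09, 10.14, 9.85 and 11.17 with zinc, at 11.62, 12.14, 10.82 and 12.1 in untreated Atp7b-/- livers, and at 9.07, 8.98, 10.93 and 10.14 in wild type. Wild type replicate 3 lay above untreated replicate 3, so those groups overlap. The rise was 1.89 ± 0.48 (SE; adjusted p = 0.0111 in limma) in untreated Atp7b-/- against wild type. With zinc the change of -1.61 did not pass the test (adjusted p = 0.0629).

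Untreated replicate 3 stood apart from the other untreated arrays in these genes. The median difference of the 10 genes from their wild type means was 1.68, 1.7, 0.48 and 2.22 in untreated replicates 1 to 4. Over the 2600 other genes called higher against wild type it was 0.57, 0.49, 0.51 and 0.59, so there replicate 3 lay among the others. Those 2600 genes were called from these same arrays. Replicate 3 had 4 members above every wild type array (Junb, Atf3, Egr1 and Zfp36), where replicates 1, 2 and 4 had 8, 9 and 9. No share of all genes above every wild type array is given for single arrays. Without replicate 3, 9 of the 10 genes rose against wild type, and 7 fell with zinc (Fos, Jun, Atf3, Egr1, Ier3, Zfp36 and Dusp1). Of all 18193 genes, 2406 were then called higher against wild type, and 768 were called lower with zinc. Egr1 then changed by -2.72 (adjusted p = 0.0202 in limma) and Fos by -2.92 (adjusted p = 0.000714). The array was singled out by its low values in these genes, so the counts without it restate that observation and add no evidence of their own.

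**Figure D3:**
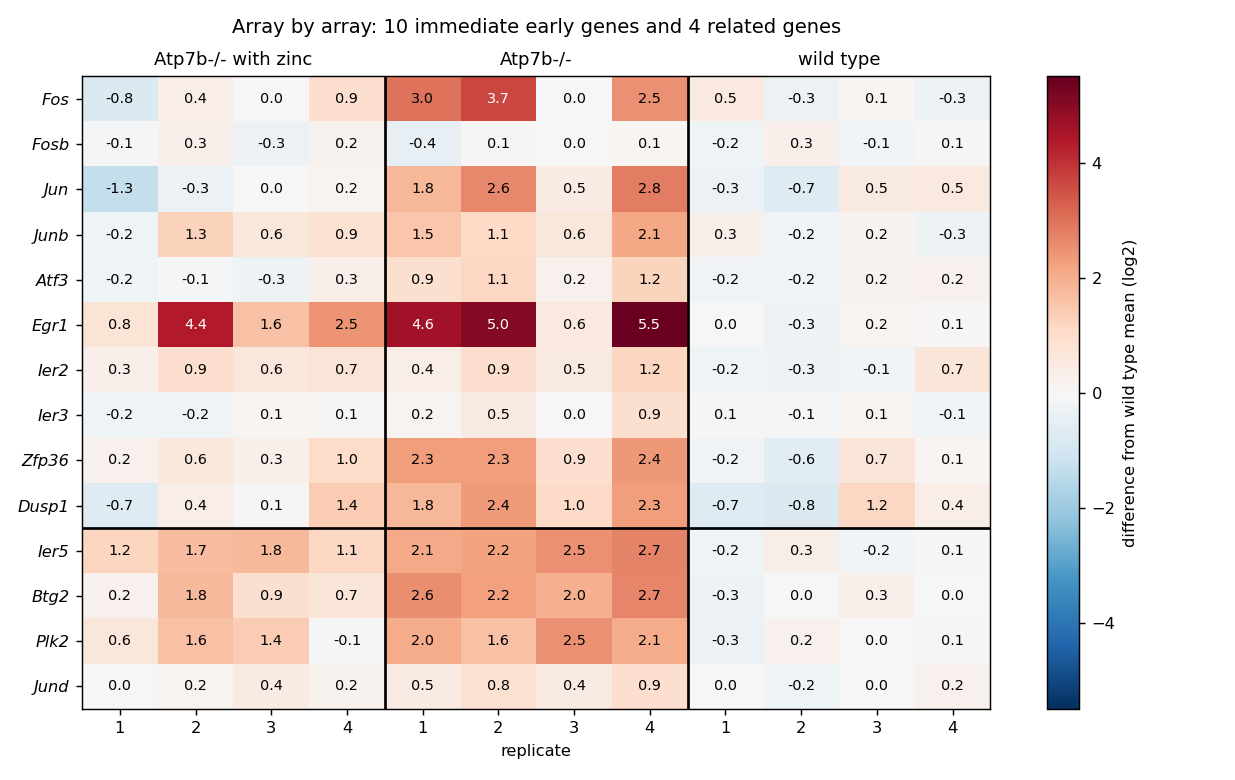
Difference of each of the 10 genes from its wild type mean, in log2 units, on each of the 12 arrays. Ier5, Btg2, Plk2 and Jund, which are not among the 10, are drawn below them. Zinc-treated, untreated Atp7b-/- and wild type arrays run from left to right. Across most of the 10 genes untreated replicates 1, 2 and 4 are high, and untreated replicate 3 and zinc-treated replicate 4 are intermediate.

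The zinc-treated arrays also differed from each other. They had 1, 3, 2 and 7 members above every wild type array, with median differences of -0.22, 0.36, 0.1 and 0.77. Here too no share of all genes is given for single arrays, so the counts have no background beside them. Replicate 4 was the highest of the group for Fos, Jun, Atf3, Zfp36 and Dusp1, while replicate 2 was the highest for Egr1, Junb and Ier2. The SD of a member exceeded its wild type SD for 8 of 10 genes in untreated Atp7b-/- livers (43.5% of all genes) and for 6 of 10 in zinc-treated ones (42.9% of all genes).

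Likeness between the members is given as a description over 12 arrays that share groups. After each value had its group mean taken away, the 36 pairs without Fosb had a median Pearson r of 0.63, from 0.23 to 0.92, beside a median of 0.0 over all pairs of genes tested. Untreated replicate 3 carries part of this, and without it the median was 0.42, from 0.03 to 0.93, an alternative chosen after seeing the data. In wild type livers the members did not rank alike: Fos and Junb were highest on replicate 1, Jun and Ier2 on replicate 4, and Zfp36 and Dusp1 on replicate 3. Fosb had a median r of 0.11 with the other 9. Among 8851 candidate genes, those most like the mean of the 10 in their levels were Tcim and Ndufb8 (r = 0.93 each), Drc1 (0.92), and H3f3b and Snrpa1 (0.91 each). After removal of group means they were Ppt1 (0.88), Rnf141 (0.87), Drc1 and Dpy30 (0.86 each), and Snrpa1 (0.84). These are the highest of 8851 values over 12 arrays, and values this high can arise among unrelated genes. The mean of the 10 was taken without scaling, so genes with a wide spread, such as Egr1, weigh most in it. Whether the named genes follow the members was not tested.

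Lists of other genes of the same network were read in the same fit. Of 10 other AP-1 and Maf subunits, 1 rose in untreated Atp7b-/- against wild type livers and 1 fell, with a median change of 0.08. The shares of all genes were 14.3% higher and 10.3% lower. Jund, the AP-1 subunit with steady expression in many tissues, rose by 0.67 (adjusted p = 0.00246 in limma). That call was lost when all probe sets of a gene were averaged, where 0 genes of this list were called higher. Batf2 fell by 0.27 (adjusted p = 0.00835). With zinc against untreated livers no call in this list held under all alternatives. Batf2, at 0.23 (adjusted p = 0.0494 in limma), was the 1 call with all arrays, and the list had 0 with the compared groups fitted alone.

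Of 35 other immediate early genes, 9 rose and 1 fell in untreated Atp7b-/- against wild type livers, with a median of 0.19. Taken in either direction, the share called is near the 24.6% of all genes, but the calls here were mostly higher. Of all genes, 14.3% were called higher and 10.3% lower. The count of this list was 6 (5 higher) without untreated replicate 2 and likewise without untreated replicate 4. Those that rose were Ier5, Btg2, Gadd45g, Plk2, Myc, Ccn2, Csrnp1, Klf2 and Rhob. Ier5, a relative of Ier2, averaged 8.05 ± 0.35 with zinc, 8.99 ± 0.29 in untreated Atp7b-/- livers and 6.6 ± 0.25 in wild type (SD, n = 4 each). It was called in all 3 comparisons, at 2.39 in untreated Atp7b-/- against wild type, -0.93 with zinc and 1.46 in zinc-treated against wild type (adjusted p = 0.000229 in limma). Btg2, an antiproliferative gene, rose by 2.36 and changed by -1.47 with zinc, and the kinase gene Plk2 rose by 2.05 and changed by -1.18. These 3 genes are also known targets of p53. On untreated replicate 3 they read 9.11 for Ier5, 8.9 for Btg2 and 10.79 for Plk2, the last being the highest of all 12 arrays. Gadd45b, a stress gene, fell by 0.37 (adjusted p = 0.00745 in limma). Its group means lay below 6.58, the median of all gene values. When all probe sets of a gene were averaged, 8 genes of the list were called higher and 0 lower. With zinc 3 of the 35 fell, against 4.84% of all genes called lower. The count was 2 without zinc replicate 1, zinc replicate 4 or untreated replicate 4, and 5 without zinc replicate 2. In zinc-treated against wild type livers Ier5 was the 1 call, and the count was 2 to 3 without wild type replicate 4, untreated replicate 1, zinc replicate 1 or zinc replicate 4.

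**Figure D4:**
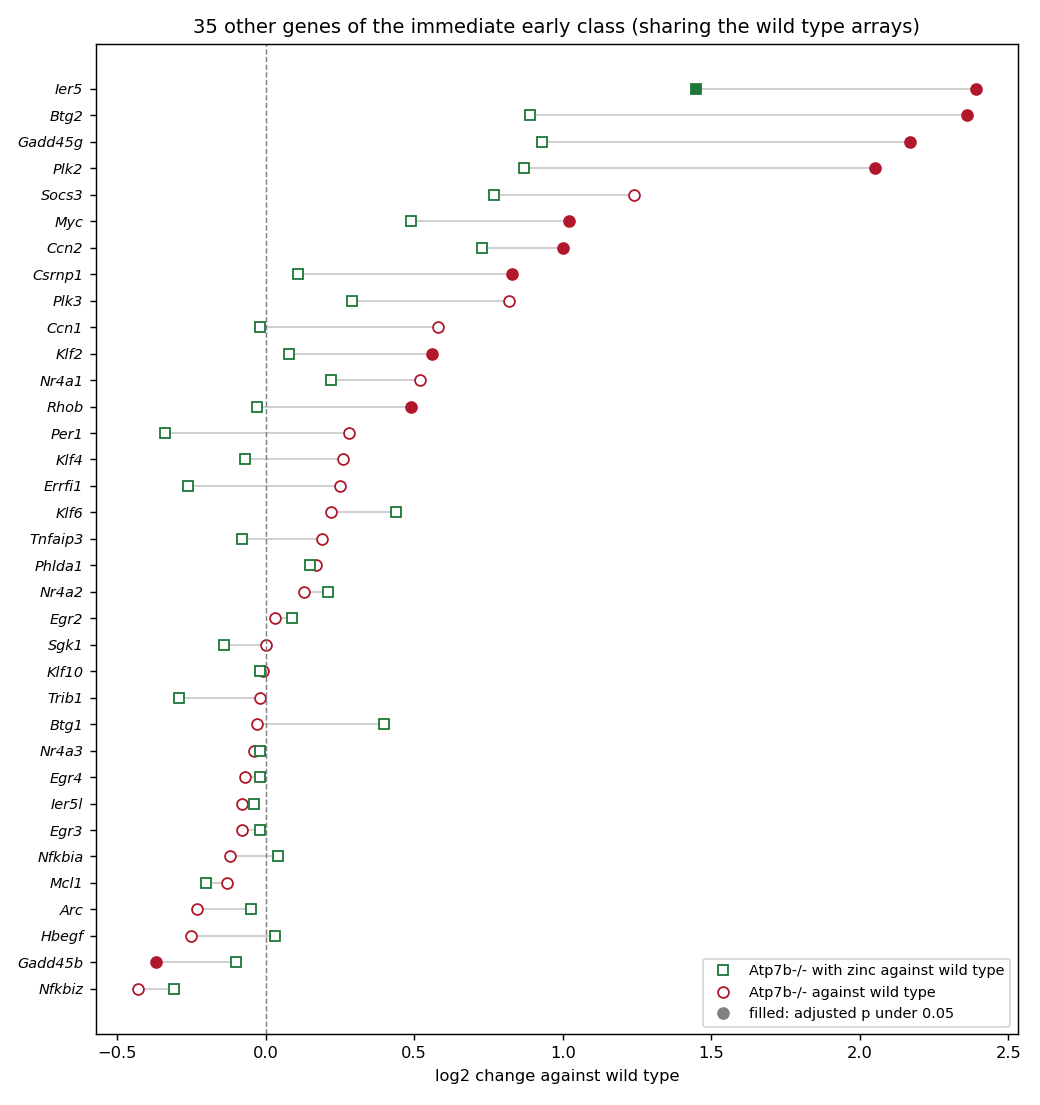
Log2 change against wild type (x axis) of 35 other immediate early genes in zinc-treated Atp7b-/- (squares) and untreated Atp7b-/- livers (circles), which share the wild type arrays; filled marks have an adjusted p under 0.05. Ier5, Btg2, Gadd45g and Plk2 have the highest untreated values, and Ier5 is the one gene filled for zinc-treated livers.

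Of 12 measured relatives of Zfp36 and Dusp1, 4 fell in untreated Atp7b-/- against wild type livers (Zfp36l2 by 0.51, Dusp4 by 0.68, Dusp7 by 0.35 and Dusp2 by 0.27) and 1 rose (Dusp14, 0.81), with a median of -0.16. Of all genes, 10.3% were called lower there and 14.3% higher. The count of 5 in this list was 3 when wild type replicate 1 or 4 was left out. It was also 3 without any 1 of zinc replicates 1, 2 and 4 or untreated replicates 1 and 2. Zfp36l2, which like Zfp36 binds AU-rich messenger RNA, rose with zinc by 0.53 (adjusted p = 0.0302 in limma), a call that was lost without any 1 of zinc replicates 1, 2 and 3 or untreated replicates 2 and 3. Of 21 measured kinases and factors upstream, 3 rose (Map2k3, Map2k4 and Mapkapk2) and 2 fell (Map2k6 and Rps6ka5) in untreated Atp7b-/- against wild type livers, a share near the 24.6% of all genes called. Their median was 0.04. Map2k3 and Map2k6 both activate p38, Mapkapk2 and Rps6ka5 both act below it, and Map2k4 activates JNK, so genes of like role moved both ways. Mapkapk2 rose by 0.51 (adjusted p = 0.000486 in limma) and changed by -0.58 with zinc (adjusted p = 0.000938), while Map2k6 fell by 0.58 and changed by 0.76 with zinc. Of 10 heat-inducible chaperone genes, 4 fell in untreated Atp7b-/- against wild type livers (Hspb1 by 1.3, Dnajb1 by 0.9, Hspa1b by 0.87 and Bag3 by 0.49), against 10.3% of all genes. That count was 2 without wild type replicate 2, wild type replicate 3 or untreated replicate 1. The same 4 fell in zinc-treated against wild type, against 2.73% of all genes, and there the count was 2 without wild type replicate 1 or 3 or zinc replicate 1 or 2. With zinc against untreated livers the 10 changes ran from -0.86 to 0.61, and none passed the test.

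Sample quality and cell content moved with the groups as well, and their part in the results was not tested. The difference between the 3' and 5' probe sets of actin and Gapdh, a sign of RNA integrity, ran from 0.541 to 0.739 in zinc-treated, from 0.792 to 0.881 in untreated Atp7b-/- and from 0.617 to 0.784 in wild type arrays. It was thus highest in the group in which the members were highest, and RNA quality and that group cannot be told apart. Hepatocyte markers averaged between 13.84 and 14.01 on all arrays, with 1 of 8 called lower in untreated Atp7b-/- against wild type. Of 8 Kupffer cell and macrophage markers 5 fell there, with list means of 7.92 to 8.25 with zinc, 7.71 to 8.76 in untreated Atp7b-/- and 8.16 to 9.06 in wild type livers. The untreated value of 8.76 is that of replicate 1, and the other 3 untreated arrays did not exceed 7.96. Endothelial markers fell for 3 of 7 and neutrophil markers for 1 of 6, while of the cholangiocyte markers 1 of 5 rose. Among all genes, 10.3% were called lower and 14.3% higher in untreated Atp7b-/- against wild type. The lymphocyte and stellate cell lists, of 8 measured markers each, had median changes of -0.14 and -0.09 and no called member in that comparison. With zinc against untreated livers, 2 of 8 stellate cell markers rose (Col3a1 by 0.74, adjusted p = 0.0455 in limma, and Reln by 0.61, adjusted p = 0.00985), as did the endothelial marker Clec4g by 0.43. The hepatocyte marker Tat fell by 0.72 there (adjusted p = 0.0339 in limma). Among all genes, 1.7% were called higher with zinc and 4.84% lower. The list mean of 9 pancreatic acinar markers was 9.85 and 7.2 on zinc-treated replicates 2 and 3, against 5.67 to 6.04 on the 10 other arrays. Without those 2 arrays Jun changed by -2.49 with zinc (adjusted p = 0.0515 in limma).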

How the data were processed

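RNA was measured on 12 Affymetrix GeneChip Mouse 430 2.0 arrays, per the labels' protocols. The authors deposited log2 expression values per probe set, from 2.22 to 15.2. Their summary and normalization steps are not stated in the labels used here. Values were used without further scaling. Array medians lay between 5.63 and 5.71, and precision is limited by having 4 arrays a group. Of 45101 probe sets, 64 controls were left out; 34945 had 1 gene symbol, 932 had several and 9160 had none. Only the first kind was used, with the probe set of highest mean over 12 arrays for each of 18193 genes. Gene places and promoter windows came from RefSeq (GRCm38.p6).

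Groups were compared in 1 limma 3.58.1 fit of group means over 12 arrays in R 4.3.3 (lmFit, contrasts.fit, eBayes), with Benjamini-Hochberg adjustment over all genes and a threshold of 0.05. The fit was tested on simulated data. Log2 changes are differences of group means; errors of means are SDs and errors of changes are SEs. From each further list, up to 4 genes with the smallest adjusted p were named, with any called gene that moved against the list's median; other called genes of a list are named where their number is given. The 5 genes most like the members came from those above the median level. Members and lists were chosen with earlier results of these data known. Alternatives covered other normalizations, probe set choices, variance models, array weights, the replicate number as a block and each array left out.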

Additional observations from a re-analysis of the deposited data

Results flagged for a closer look

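Of 30 groups of 4 arrays (10 genes in 3 groups), 2 held an array whose gap to the nearest of the others was beyond Dixon's critical share of the group's range, and chance gives about 1 in 20. Zfp36 read 10.4 on untreated Atp7b-/- replicate 3, with a gap of 0.931 of the range. Ier2 read 9.2 on wild type replicate 4, with a gap of 0.842 of the range. Egr1 on untreated Atp7b-/- replicate 3, at 7.07, was just short of that limit with 0.827.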

How the results depend on the processing

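The results were recomputed under 23 alternatives. In untreated Atp7b-/- against wild type livers, 8 of the 10 genes were called, and 7 to 9 with 1 array left out. With zinc against untreated livers, 3 were called, 6 with array weights, 2 to 7 with 1 array left out and 0 without zinc replicates 2 and 3, where fewer samples enter the fit. In zinc-treated against wild type livers 0 were called, 1 when only the compared groups were fitted and 0 to 1 with 1 array left out. Over all genes, the counts with 1 array left out ran from 3292 to 4495 (4480 with all arrays), from 689 to 1158 (1190) and from 932 to 1639 (1386) in the same 3 comparisons. The count with zinc against untreated livers was 1861 with array weights and 614 without zinc replicates 2 and 3, and the count against wild type was 699 without those 2 arrays. The share of called genes that were higher was 58.2% as deposited, 49.6% after quantile normalization and 67.9% after centring in untreated Atp7b-/- against wild type, 26.0%, 40.2% and 19.9% with zinc against untreated, and 64.2%, 58.2% and 69.3% in zinc-treated against wild type. Of 675 single gene values, 631 kept direction and call, 9 lost the call, 18 gained it and 17 changed sign, all of the last being uncalled. Fosb in untreated Atp7b-/- against wild type was 0.01 after quantile normalization and 0.01 with array weights, and Atf3 in zinc-treated against wild type was 0.02 without zinc replicates 2 and 3. With 1 array left out, Fosb ran from -0.14 to 0.06 in untreated Atp7b-/- against wild type, from -0.05 to 0.18 with zinc against untreated and from -0.07 to 0.12 in zinc-treated against wild type. Ier2 ran from -0.24 to 0.03 with zinc against untreated. In zinc-treated against wild type livers Fos ran from -0.14 to 0.43, Atf3 from -0.18 to 0.01, Ier3 from -0.12 to 0.0 and Dusp1 from -0.08 to 0.67. The cause of these shifts was not tested. The groups share replicate numbers. Of 12 same-numbered pairs, 5 had a correlation of deviations over 0.1 (from -0.13 to 0.24), and the own number gave the highest in 5. These values do not settle whether the numbers pair the arrays. With the replicate number as a block, 8, 3 and 1 members were called in the 3 comparisons, the last being Ier2 at 0.63 (adjusted p = 0.032 in limma), and 4449, 1171 and 1353 genes in all.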
